A study of Mus musculus with 4 samples.

Results

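The major histocompatibility interval of mouse chromosome 17 was taken here by position alone, as chromosome 17 from 33.9 to 37.3 Mb in mm10. Its members were the cytosines that had a methylation value in all 4 livers, matched by chromosome, base and strand, and there were 6170 of them among 1276684 in the whole genome. Together the 4 livers covered 7689 cytosines in the stretch, and each of them fell on a CpG of the reference. Mixed-1 and mixed-2 covered 6805 and 6397 of them, and C57BL/6-1 and C57BL/6-2 covered 7431 and 7340. A cytosine with fewer than 10 reads is not in the files and is called absent.

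Enhanced reduced representation bisulfite sequencing (ERRBS), in which the DNA is cut by MspI at CCGG (per the labels, while the study also describes TaqαI) and the short CpG-rich fragments are bisulfite converted and sequenced, was run on total liver of 4 male mice aged 6-8 weeks. Mixed-1 and mixed-2 came from an undefined background that includes C57BL/6J and other strains and were kept at Brigham and Women's Hospital. C57BL/6-1 and C57BL/6-2 were kept at Memorial Sloan Kettering. All 4 mice ate a normal diet. Strain, housing site and sequencing depth differ between the groups together and cannot be told apart. Each library held 60654199 to 99215153 site reads, with a mean coverage of 44.2 and 49 reads per site in the mixed mice and 63.7 and 60.1 in C57BL/6. Whole liver holds hepatocytes beside Kupffer, endothelial and other cells, and these files hold no expression values with which the tissue label could be checked. Below, values in the order mixed-1, mixed-2, C57BL/6-1, C57BL/6-2 are percent methylated reads, averaged over sites where a gene or class is given.

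The interval is the mouse H2 complex. Class I genes, in the K, D, Q, T and M regions, encode the heavy chains that pair with beta-2 microglobulin and show peptides from inside the cell to CD8 T cells, and the classical members H2-K1 and H2-D1 are expressed by nearly all nucleated cells, while H2-Q10 encodes a secreted class Ib chain made in liver. Class II genes (H2-A, H2-E, H2-DM and H2-O) serve antigen-presenting cells and CD4 T cells. Tap1, Tap2, Psmb8 and Psmb9, which lie among the class II genes, and Tapbp, which lies before H2-K1, cut, carry and load peptides. Between the class II genes and H2-D1 lies the class III region. It holds the complement genes C2, Cfb, C4a and C4b and the cytokine genes Tnf, Lta and Ltb. The interval is among the most polymorphic parts of the mouse genome, and its class I genes are a family of close copies.

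Promoter sequences of the RefSeq table for GRCm38.p6, which has the coordinates of mm10, are shown first because 99.7% of the members lie within 50 bases of a CCGG. Each runs from 250 bases before to 50 bases after an annotated transcription start site (TSS), 5′ to 3′, with CpGs in capitals.
H2-K1, chr17:34000284-34000583, minus strand: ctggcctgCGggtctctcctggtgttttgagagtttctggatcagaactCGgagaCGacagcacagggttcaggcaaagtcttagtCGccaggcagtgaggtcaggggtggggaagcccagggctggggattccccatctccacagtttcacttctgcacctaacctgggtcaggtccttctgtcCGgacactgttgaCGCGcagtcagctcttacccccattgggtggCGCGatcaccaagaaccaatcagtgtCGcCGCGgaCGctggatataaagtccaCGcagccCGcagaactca
H2-D1, chr17:35262844-35263143, plus strand: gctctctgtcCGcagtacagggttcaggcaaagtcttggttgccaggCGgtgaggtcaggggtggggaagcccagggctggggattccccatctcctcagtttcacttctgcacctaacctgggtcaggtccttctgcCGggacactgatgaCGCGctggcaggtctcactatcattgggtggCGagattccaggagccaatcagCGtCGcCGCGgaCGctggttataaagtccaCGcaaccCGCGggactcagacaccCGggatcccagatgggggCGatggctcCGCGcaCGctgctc
H2-Q10, chr17:35469839-35470138, plus strand: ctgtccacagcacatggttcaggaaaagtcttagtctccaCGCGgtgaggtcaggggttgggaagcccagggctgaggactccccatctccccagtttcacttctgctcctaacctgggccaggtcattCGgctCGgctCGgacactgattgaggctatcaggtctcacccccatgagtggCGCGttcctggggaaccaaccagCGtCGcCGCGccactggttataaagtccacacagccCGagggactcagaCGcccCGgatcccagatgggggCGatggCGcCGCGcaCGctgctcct
H2-Aa, chr17:34287774-34288073, minus strand: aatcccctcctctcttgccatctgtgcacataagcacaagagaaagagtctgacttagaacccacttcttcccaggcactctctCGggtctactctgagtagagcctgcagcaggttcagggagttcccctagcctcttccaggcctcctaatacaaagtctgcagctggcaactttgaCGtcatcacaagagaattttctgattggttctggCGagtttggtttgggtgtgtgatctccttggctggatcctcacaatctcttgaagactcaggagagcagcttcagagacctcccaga
H2-Eb1, chr17:34305617-34305916, plus strand: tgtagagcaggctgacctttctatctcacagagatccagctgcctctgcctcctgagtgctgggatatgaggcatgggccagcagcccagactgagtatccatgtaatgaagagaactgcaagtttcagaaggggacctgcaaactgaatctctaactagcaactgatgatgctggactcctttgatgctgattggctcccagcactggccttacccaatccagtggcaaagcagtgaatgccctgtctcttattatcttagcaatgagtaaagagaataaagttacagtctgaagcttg
The class I windows of H2-K1, H2-D1 and H2-Q10 held 15, 19 and 19 CpGs, whereas those of the class II genes H2-Aa and H2-Eb1 held 3 and 0. Their CCGG counts were 1, 2 and 1 in the class I windows and 0 in both class II windows. The table held windows for 25 listed class I genes and 8 listed class II genes, and CCGG was in those of 10 and 2 genes, against 52.8% of all 32851 windows. The CCAAT box, searched as CCAAT on both strands, was in the windows of 22 class I and 8 class II genes against 37.4% of all windows. These letters were chosen after the sequences were read, the genes are close copies of each other, and a match describes the sequence only.

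Methylation across the interval spanned 23.92% to 24.13% in the 4 livers, below the rest of the genome in each of them. The site mean was 24.08%, 24.13%, 23.92% and 23.97%. Mixed mice averaged 24.11% ± 0.0375 (SD, n = 2) and C57BL/6 mice 23.94% ± 0.0341 (SD, n = 2), so the C57BL/6 mean was lower by 0.163 points, and both C57BL/6 values lay under both mixed values (two-sided exact permutation test over the mice, p = 0.333, the smallest p that 2 against 2 allows). The rest of chromosome 17 stood at 28.88% ± 0.185 (SD of the 4 mice) over 52586 sites and the other autosomes at 28.39% ± 0.147 over 1194917 sites. In those regions too the C57BL/6 mean was lower, by 0.255 and 0.203 points. On average 69.1% of the interval's sites were hypomethylated (below 20%) and 17.1% hypermethylated (above 80%), against 65.4% and 22.4% on the other autosomes.

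Position relative to genes divided the interval more than strain did. Sites within 1000 bp of a TSS, called promoter sites here, made up 65.8% of the members (4058 sites) and averaged 5.58% ± 0.0651 (SD, n = 4 mice). Exonic sites outside promoters averaged 60.2% ± 0.256 over 1298 sites, intronic sites 59.7% ± 0.167 over 436 sites and intergenic sites 56.8% ± 1.28 over 378 sites. The strain difference (C57BL/6 minus mixed) was -0.0266 points in promoters, -0.169 in exons and 0.274 in introns. Intergenic sites had 57.5%, 58.2%, 55.4% and 56.0%, so both C57BL/6 livers were lower there, by 2.12 points.

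Most class I promoters were almost free of methylation in every liver. Of 40 listed class I genes 34 were in the annotation, 18 had a promoter site common to all mice and 15 had at least 5. Over the 548 class I promoter sites the mean was 3.10%, 2.95%, 2.95% and 3.11%, against 6.05% ± 0.0808 (SD, n = 4 mice, 3252 sites) for promoters of genes outside the lists, a difference of -3.02 points ± 0.117 (SD, n = 4 mice). The class I mean was the lower one in 4 of 4 mice (exact two-sided sign-flip permutation test over the mice, p = 0.13, adjusted p = 0.13 over 3 classes, the smallest p that 4 mice allow). The difference was -1.53 points with the reads of all sites pooled and -1.84 points with curated transcripts only. Between strains the class I promoter mean differed by 0.00581 points, and no class I promoter site had a strain difference of 25 points.

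Among the classical genes, H2-K1 had 64 promoter sites with means of 0.0987%, 0.0599%, 0.223% and 0.202%. H2-D1 had 62 sites with 0.167%, 0.145%, 0.137% and 0.0197%. Read depth at these sites was 12 to 108 reads for H2-K1 and 13 to 218 for H2-D1. A site with no methylated read among 10, the lowest coverage in the files, still allows a level of up to 30%, so it is the many sites of a promoter together that set these low means. H2-Q10, the liver class Ib gene, had 54 sites with 0.983%, 1.45%, 0.973% and 1.21%. H2-Q4 had the most sites of the class, 70, at 0.113%, 0.214%, 0.159% and 0.272%. The strains overlapped for H2-Q10 and H2-Q4. Both C57BL/6 livers were above both mixed livers for H2-K1, by 0.133 points, and below both for H2-D1, with a difference of -0.0774 points. Levels and differences this small are close to the share of cytosines left unconverted at the study's reported conversion rates. These differences were not tested. Mean promoter levels of the other class I genes with 5 or more sites were 0.326% for H2-M3, 0.372% for H2-Bl, 0.654% for H2-K2, 1.03% for H2-Q2, 1.09% for H2-Q7, 1.82% for H2-Q5 and 1.98% for H2-Q1. H2-T22 had 0.613%, 0.120%, 0% and 3.11% over 11 sites, a mean of 0.960% that was 0.244% without C57BL/6-2. H2-T23 and Gm8909 had no promoter site common to the 4 mice. Of 6 listed M10 genes, which encode class Ib molecules of the vomeronasal organ, 3 had a common promoter site, 4 sites in all. H2-M10.4 had 81.8%, 86.5%, 90.03% and 88.8% over 2 sites, H2-M10.5 had 87.5% to 93.7% at 1 site, and H2-M10.2 had 44.7%, 26.2%, 59.4% and 48.2% at 1 site.

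Among class I promoters with 5 or more sites, the 3 highest were those of H2-M5, H2-T10 and H2-Q6. H2-M5 had 6.81%, 7.19%, 7.58% and 6.52% over 22 sites. H2-T10, annotated as a transcribed pseudogene, had 29.4%, 19.8%, 12.7% and 24.2% over 7 sites, a spread with no strain order. H2-Q6 had 23.3%, 20.8%, 22.02% and 22.1% over 32 sites, and its level came from the far end of the window. From 61 bases before to 540 bases after its TSS, 22 sites were below 20%, with means of 0.821% to 1.92%, while 9 sites at 918 to 973 bases after the TSS had means of 62.1% to 68.7% and a further site at 935 bases had 79.4% to 87.1%. Across the class, sites from 250 bases before to 50 after the TSS averaged 0.436% ± 0.206 (SD, n = 4 mice, 48 sites), those 51 to 500 bases after it 0.926% ± 0.115 (314 sites) and those 501 to 1000 bases after it 7.16% ± 0.184 (185 sites). Promoters outside the lists showed 2.53% ± 0.106, 3.29% ± 0.101 and 25.4% ± 0.508 at the same distances. A single class I site lay more than 250 bases before its TSS, whereas 185 unlisted ones did.

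**Figure D1:**
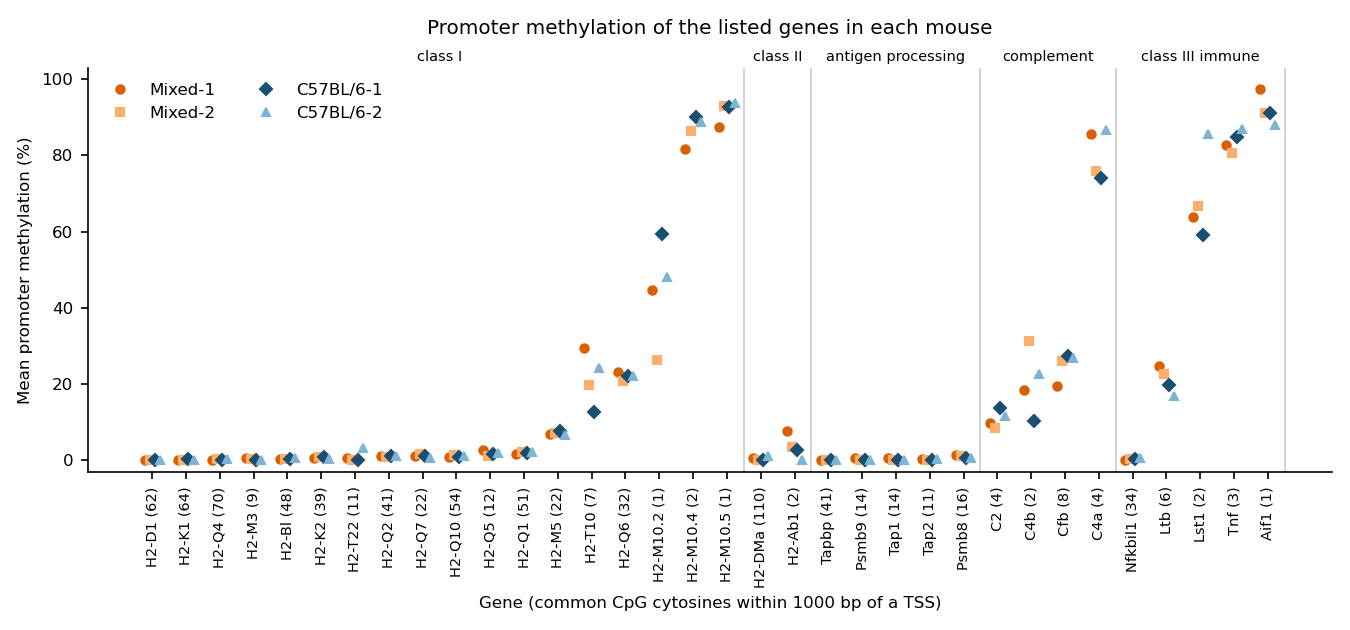
Mean promoter methylation (percent, y axis) of every listed gene with a common promoter site, one marker per mouse, with the number of sites in brackets after the gene name on the x axis. Most class I promoters and those of the antigen-processing genes lie near 0 in all mice, and H2-M10.4, H2-M10.5, C4a, Tnf and Aif1 lie at 74.2% or more in all mice.

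**Figure D2:**
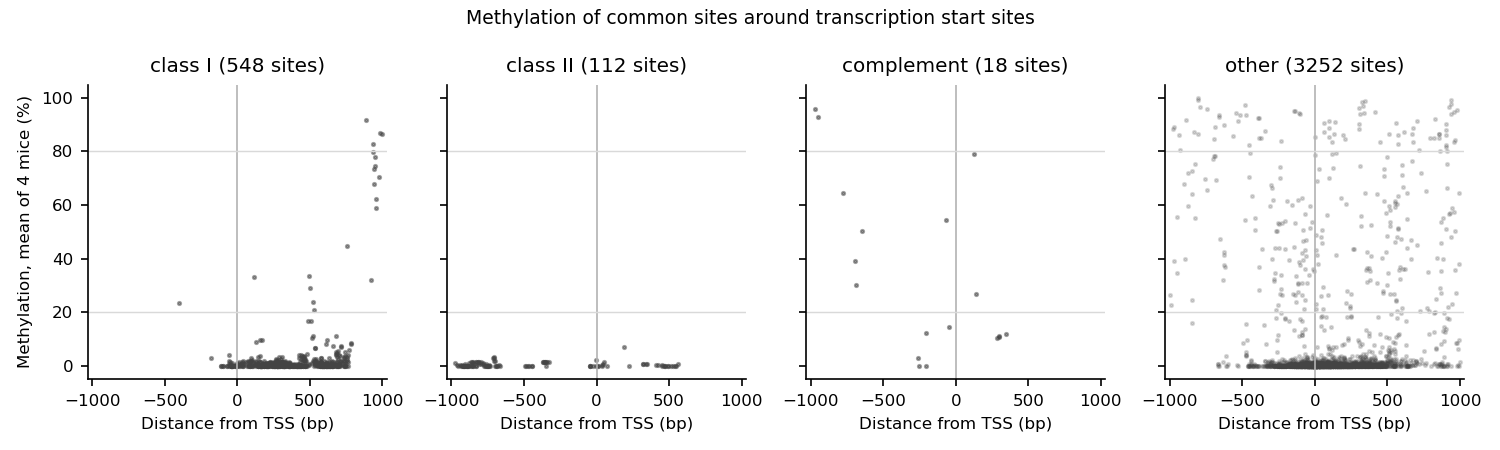
Methylation of each common promoter site (mean of the 4 mice, percent, y axis) against its distance from the nearest TSS of the class (bp, x axis, negative upstream), for class I, class II, complement and unlisted genes, with grey lines at 20% and 80%. Methylated class I sites lie mostly beyond 501 bases after the TSS, and the 18 complement sites spread over the whole scale.

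Class II genes were read at few promoters. Of 12 listed genes 11 were annotated, and only H2-DMa, with 110 sites, and H2-Ab1, with 2 sites, had promoter sites common to the 4 mice. H2-DMa, a chaperone that edits class II peptides, had 0.587%, 0.0572%, 0.136% and 1.07%, and all 110 sites also lie within 1000 bp of a TSS of Brd2, a bromodomain gene that is expressed widely. With curated transcripts only, 7 of the 112 class II promoter sites remained, and the H2-DMa mean was 0%. The class II promoter mean was therefore in effect the mean of a single shared promoter, and it differed from that of unlisted genes by -5.53 points, lower in 4 of 4 mice (exact sign-flip permutation test, p = 0.13, adjusted p = 0.13). The 2 promoter sites of H2-Ab1, the beta chain of the A molecule, had 7.69%, 3.57%, 2.78% and 0% at a median of 24.5 reads. H2-Aa and H2-Eb1 had no promoter site common to the mice.

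Inside H2-Ab1 methylation was low. Its 93 body sites lay 1343 to 5044 bases after the TSS, at chr17:34264570-34268271, and had means of 2.53%, 2.999%, 2.36% and 2.29%, with 91 of 93 sites below 20% at a median of 66 reads. The other class II bodies with common sites were higher. H2-Eb1 had 85.8%, 71.5%, 88.2% and 84.6% over 4 sites, H2-DMb1 64.9%, 70.5%, 69.4% and 69.0% over 6 sites, and H2-DMa 43.4%, 41.9%, 45.9% and 42.7% over 19 sites. Over the class, 125 body sites averaged 16.4% ± 0.317 (SD, n = 4 mice), against 64.8% ± 0.211 over 1451 body sites of unlisted genes. Other genes with 5 or more body sites and a body mean under 20%, chosen here after their values were known, were the class I pseudogene H2-Q3 (24 sites, 5.30% to 8.58%), Ltb, which encodes lymphotoxin beta (16 exonic sites, 1.90% to 2.99%), and the unlisted genes Prrt1 (55 sites, mean 7.38%), Ppt2 (62 sites, mean 16.04%), Hspa1b, Hspa1a, Gm6633 and Gm15321. Prrt1 lies inside Ppt2, so its 55 sites are also among the 62 of Ppt2.

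Promoter sites of the antigen-processing genes were at or near 0 in all 4 livers, although none of them lay from 250 bases before to 50 after a TSS. Tapbp had 0.0750% to 0.181% over 41 sites, Tap2 0.157% to 0.362% over 11 sites, and Tap1 and Psmb9, which share a divergent promoter of 14 sites, 0.527%, 0.121%, 0.1253% and 0.149%. Psmb8, an immunoproteasome subunit, had 1.33%, 1.25%, 0.590% and 0.556% over 16 sites, so that both mixed livers lay above both C57BL/6 livers by 0.716 points. Inside the genes Psmb9 was at 88.7% to 95.7% over 11 sites and Tap1 at 65.2% to 67.3% over 7 sites.

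Complement promoters had the highest mean of the listed classes, ahead of the class III immune genes (13.4% ± 0.486, SD, n = 4 mice, 46 sites). Their 18 sites averaged 31.96%, 33.7%, 32.9% and 36.3%, which was 27.7 points above unlisted promoters, in 4 of 4 mice (exact sign-flip permutation test, p = 0.13, adjusted p = 0.13). With at least 20 reads in each mouse the difference was 14.9 points. Cfb, which encodes factor B of the alternative pathway, had 19.6%, 25.9%, 27.4% and 26.8% over 8 sites. Of these, 4 sites at positions -257 to -207 from its TSS had 1.28% to 6.67%, and 4 sites at positions -780 to -648 had 37.8% to 53.1%. C2 had 9.89%, 8.48%, 13.8% and 11.8% over 4 sites. C4b, the fourth complement component, had 18.6%, 31.3%, 10.23% and 22.6% over only 2 sites at a median of 30.5 reads. C4a, its neighbour and near copy, annotated as a transcribed pseudogene, had 85.5%, 75.8%, 74.2% and 86.8% over 4 sites. For C4b and C4a the spread within each strain was larger than the difference between the strains. Both C57BL/6 values were higher for Cfb, by 4.36 points, and for C2, by 3.61 points. For Cfb the mixed mice differed from each other by more than that, whereas for C2 the spread within each strain was smaller. Complement bodies averaged 55.2% ± 1.09 (SD, n = 4 mice) over 35 sites, from 28.8% in Cfb to 83.2% in C4a.

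Of the class III immune genes, Tnf had 82.9%, 80.8%, 84.8% and 87.0% over 3 promoter sites, all of them 501 to 1000 bases before its TSS, and 28.0% ± 5.48 (SD, n = 4 mice) over 4 body sites. Ltb had 24.8%, 22.6%, 19.8% and 16.99% over 6 promoter sites, so both mixed livers lay above both C57BL/6 livers. Nfkbil1 was at 0.306% over 34 sites that it shares with Atp6v1g2. Of genes outside the lists, the 5 highest promoter means with 5 or more sites were those of Gm23111 (96.4%), Mir6970 (92.2%), Mir877 (90.7%), Ly6g6c (80.1%) and BC051537 (79.1%).

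No CpG of the interval was called strain-variable. A moderated logistic model on methylated and unmethylated reads, with limma's prior on the overdispersion and Benjamini-Hochberg adjustment over all common sites of the genome, was called at adjusted p under 0.01 with a difference of at least 25 points. In the genome 87 of 1276684 sites passed (0.00681%), and 0 of 6170 in the interval. At an unadjusted p under 0.05 and 25 points, 17 interval sites (11 lower and 6 higher in mixed mice) were found, against 0.297% of all sites by the same rule. Limma on log2 ratios called 0 and Fisher's exact test on pooled reads called 9 (genome background 0.126%). Fisher's test treats the reads of both mice of a strain as a single sample.

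Differences of 25 points or more occurred at 21 interval sites, or 0.340% of the members, against 0.348% on the other autosomes and 0.768% on the rest of chromosome 17. Differences of 50 points or more occurred at 6 sites (0.0972%), against 0.0128% and 0.196%. The mean absolute strain difference over all members was 2.55 points, against 2.89 points on the rest of chromosome 17 and 2.54 points on the other autosomes.

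A stretch from Cdsn to Ddr1, singled out after its values were seen, gave many of these differences. Cdsn encodes corneodesmosin of the cornified skin, Gtf2h4 a subunit of the repair and transcription factor TFIIH, and Ddr1 a collagen-binding receptor tyrosine kinase. The 6 largest differences of the interval are shown as 42 bases around the cytosine, read on its own strand in GRCm38, with the measured CpG in capitals.
Gtf2h4 intron, site 35670837, chr17:35670817-35670858, plus strand: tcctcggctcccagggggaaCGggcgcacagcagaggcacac
Gtf2h4 intron, site 35670797, chr17:35670776-35670817, minus strand: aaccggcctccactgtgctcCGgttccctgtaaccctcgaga
Cdsn promoter, site 35552214, chr17:35552193-35552234, minus strand: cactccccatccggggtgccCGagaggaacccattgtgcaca
Gm33595 promoter, site 36947167, chr17:36947147-36947188, plus strand: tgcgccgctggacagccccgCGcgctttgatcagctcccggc
Ddr1 exon, site 35689839, chr17:35689818-35689859, minus strand: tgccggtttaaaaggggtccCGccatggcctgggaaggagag
Ddr1 intron, site 35682615, chr17:35682594-35682635, minus strand: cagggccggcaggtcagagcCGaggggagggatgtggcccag
Between the start of Cdsn and the end of Ddr1, chr17:35543101-35704741, 9 of 285 common sites differed by 25 points or more, and all 9 were lower in mixed mice. Site 35670837 had 35.0%, 2.44%, 88.9% and 88.9% at 20 to 54 reads (unadjusted p = 2.62e-06, adjusted p = 0.013 in the model). Site 35670797, 40 bases away on the other strand, had 60.5%, 0%, 94.7% and 97.6%. Site 35552214, 86 bases from the Cdsn TSS, had 49.3%, 0%, 82.5% and 94.0%. Sites 35689839 and 35682615 had 62.7%, 0%, 89.4% and 91.2%, and 46.7%, 7.14%, 88.7% and 79.4%. At these 5 sites mixed-2 was near 0, both C57BL/6 mice were above 79% and mixed-1 lay between. A T in place of the C in a mouse's own DNA would be counted as unmethylated, and this was not tested. The 2 mixed mice thus differed from each other by 32.6 to 62.7 points, against 0 to 11.6 points between the C57BL/6 mice. Other common sites within 50 bp had median absolute strain differences of 1.41 to 6.45 points, except at site 35682615, whose only neighbour differed by 24.4 points. None of the 5 sites had a common site on the opposite strand of its CpG. Over the whole stretch the site means were 38.1%, 37.5%, 39.9% and 40.3%.

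The opposite direction was largest at the start of the long non-coding gene Gm33595, near Rnf39. Over all 28 common sites of the Gm33595 promoter the means were 44.1%, 45.2%, 30.6% and 29.3%. This promoter difference of -14.7 points was not tested. Site 36947167, 85 bases from that TSS, had 81.2%, 73.7%, 18.8% and 12.2% at 16 to 41 reads (adjusted p = 0.167), with 37.3%, 34.0%, 30% and 4.88% on the opposite strand of the CpG. Its 17 common neighbours within 50 bp had a median absolute difference of 11.6 points. A second site of the same promoter, 138 bases from the TSS, had 71.4%, 60.7%, 42.7% and 38.1%. At both sites the mice of a strain were within 10.7 points of each other. On the opposite strand of site 36947167 the C57BL/6 mice were further apart, at 30% and 4.88%. The groups did not overlap at 20 of the 21 sites, but the sites were chosen by their strain difference, so this count carries no further weight. With promoters taking precedence over gene bodies, an H2-DMa intron site (68.0%, 83.3%, 54.5% and 37.5%) and a Cfb exon site (16.7%, 13.6%, 50.0% and 34.8%) were the only ones of the listed classes among the 21. Their unadjusted p in the model were 0.0645 and 0.0628. Site 34094490, also among the 21, was counted for the promoter of the unlisted gene BC051537. By position it also lies inside the class II gene H2-Oa, and its unadjusted p in the model was 0.0166.

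**Figure D3:**
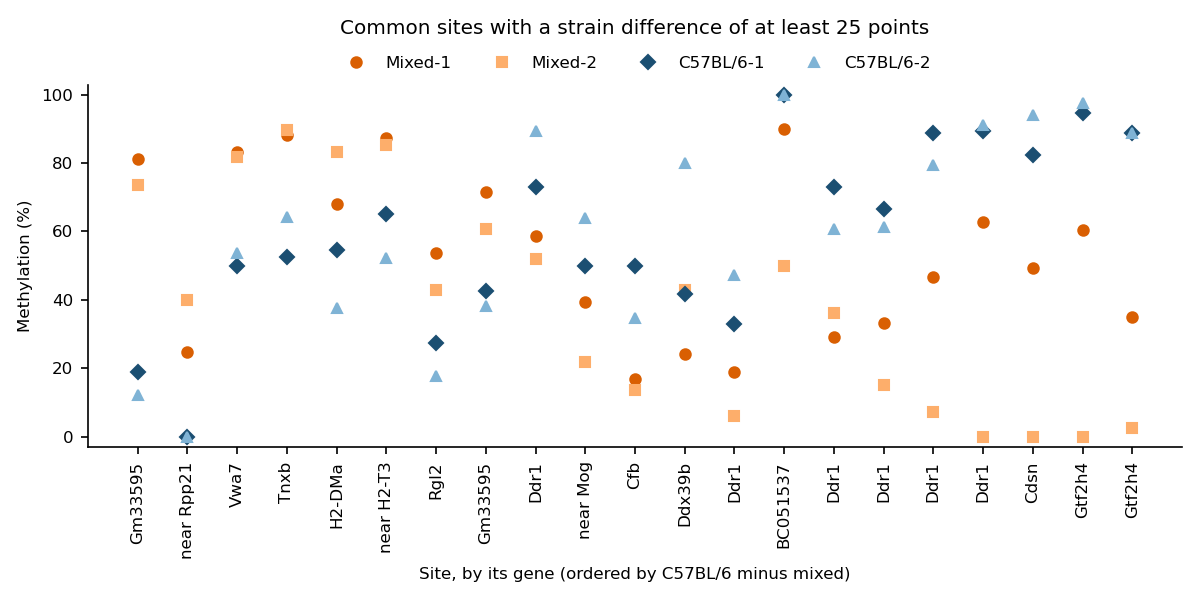
Methylation (percent, y axis) of the 21 common sites with a strain difference of at least 25 points, one marker per mouse, named on the x axis by gene or nearest TSS and ordered from higher to lower in mixed mice. At the 5 sites on the right, in Ddr1, Cdsn and Gtf2h4, mixed-2 lies between 0 and 7.14%, mixed-1 between 35.0% and 62.7%, and C57BL/6 at 79.4% or more.

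The lowest adjusted p values of the interval belonged to smaller differences at extreme depth. An intergenic spot 26375 to 26554 bases from the Rpp21 TSS, chr17:36231292-36231471, held 10 sites of extreme coverage, with medians of 2312.5, 2527.5, 2509.0 and 2318.5 reads, against interval medians of 43, 47, 65 and 61. Their mean methylation was 12.6%, 18.6%, 7.89% and 7.71%. Site 36231295 had 11.6%, 20.8%, 6.11% and 5.60% at 4270 to 4956 reads, higher in both mixed mice (adjusted p = 0.002 in the model). It was not called, because the difference was under 25 points. None of the 10 sites of extreme coverage had a further exact copy of its 50-base converted window in the reference. Near copies, and copies missing from the assembled chromosomes, were not searched for.

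Sites seen in both C57BL/6 livers were absent from mixed-2 most often in a 100-kb window of the T region (135 of 181), which was not among the highest for absence from both mixed mice (7.73%). In the interval 7200 sites were present in both C57BL/6 mice. Of these, 482 (6.69%, 95% Wilson interval 6.14% to 7.30%) were absent from both mixed mice, against 8.32% in the genome, 6354 of 63045 on the rest of chromosome 17 and 8.13% on the other autosomes. Intervals cover counting error only, and neighbouring sites share fragments. A further 469 (6.51%, 5.97% to 7.11%) were absent from mixed-2 only, against 4.24% in the genome and 4.16% on the other autosomes, and 79 (1.10%) from mixed-1 only, against 2.24% on the other autosomes. The reverse, presence in both mixed and absence from both C57BL/6 mice, held for 52 of 6268 sites (0.830%, rest of chromosome 17 1.39%, other autosomes 0.200%).

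Coverage moved with this loss, and its part was not tested beyond the bands given here. Sites absent from both mixed mice had median coverage of 23 and 18 reads in C57BL/6, against 65 and 61 for the members. Where the lower of the C57BL/6 coverages was 10 to 19 reads, 39.9% were absent from both mixed mice (other autosomes 44.6%), and where it was 40 or more, 0.599% were, or 28 of 4677 (other autosomes 0.525%, rest of chromosome 17 2.44%). Absence from mixed-2 only was 12.7%, 9.75% and 4.28% (3.73% to 4.89%) at 10 to 19, 20 to 39 and 40 or more reads. At 40 or more reads it was 1.43% on the other autosomes and 2.12% on the rest of chromosome 17, and 2.82% in the interval without the block of consecutive sites at Gm8909. Absence from mixed-1 only was 0.107% at that depth. Sites absent from mixed-2 only had a median of 43 and 37 reads in C57BL/6.

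By class, 137 of 778 class I sites in promoters or bodies (17.6%) were absent from mixed-2 only, against 16 of 329 class II (4.86%), 0 of 61 complement (0%, which allows up to 4.92% by the rule of 3 counts) and 222 of 5217 unlisted gene sites (4.26%). The complement limit takes sites as independent, although neighbours share fragments. Sites outside genes had 75 of 515 (14.6%). At 40 or more C57BL/6 reads the class I share was 15.1% (87 of 576), that outside genes 16.3% and the unlisted gene share 1.90%. A single gene set the class I value. Gm8909, a class I gene model of the T region, held 118 of the 137, which is 83.7% of its 141 sites, and without it the class I share was 2.98%. From mixed-1 only, 5 of 61 complement sites (8.20%) were absent, against 0.129% of class I, 1.22% of class II and 1.13% of unlisted gene sites. From both mixed mice, 37 of 778 class I, 35 of 329 class II, 3 of 61 complement and 320 of 5217 unlisted gene sites were absent. The genes with most such sites were H2-DMa (29 of 203), Brd2 (27 of 188, a promoter shared with H2-DMa), Zbtb12 (17 of 122), Gm5682 (14 of 20) and Prrc2a (14 of 170). The 100-kb windows with the highest share, among those with at least 50 sites, began at 34700000 (21.4%, near C4b and Cyp21a1), 34900000 (17.3%, near Lsm2, Hspa1b and Neu1) and 35500000 (15.4%, near Tcf19 and Cdsn).

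**Figure D4:**
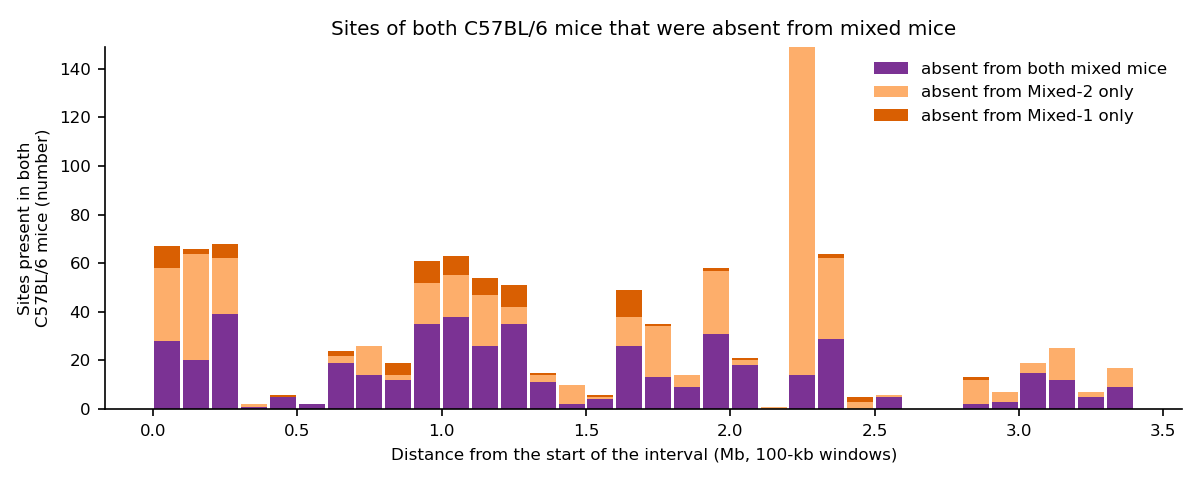
Number of sites present in both C57BL/6 mice and absent from mixed mice (y axis) in 100-kb windows along the interval (x axis, Mb from its start), coloured by which mixed mice lacked them. A single window, 2.2 Mb from the start, holds 135 sites absent from mixed-2 only, and no other window has more than 44 of these.

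Of the 469 sites absent from mixed-2 only, 347 lay outside a single block and the others lay in it. The 347 were in part grouped too. The 100-kb windows beginning at 36200000 and 36700000 had 33 of 303 and 10 of 16 sites absent from mixed-2 only. Ordered by position, 126 consecutive sites of both C57BL/6 mice were absent from mixed-2 over 26268 bp, chr17:36153007-36179274. It was the longest such run for mixed-2 on the autosomes, ahead of one of 93 sites, among 75616 runs. With at least 20 reads in both C57BL/6 mice the run had 114 sites and was again the longest, and with at least 40 reads it had 71 sites and ranked 2, behind one of 91. The longest run for mixed-1 within the interval had 9 sites. The block was noticed in the data and is given as a description with no test. It covered 114 sites in Gm8909, of which 71 lay also in the non-coding gene 2410017I17Rik and 26 in the pseudogene Gm6659, and 12 sites in the transcribed pseudogene Gm6623. C57BL/6 coverage there had a median of 46.2 reads, 2 of the 126 sites had a further exact copy of their 50-base window and 4 were soft-masked as repeats.

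Mixed-1 kept 122 of those 126 sites but at lower depth. Relative to each mouse's own median, its coverage was 0.529 of the C57BL/6 mean (quartiles 0.450 and 0.765), against 1.10 over the members of the interval. Over all 469 sites absent from mixed-2 only, those of the block included, the mixed-1 ratio was 0.576. Low mixed-1 depth was thus not particular to the block. Over the sites present in mixed-1, methylation was 8.77% in mixed-1, 8.05% in C57BL/6-1 and 8.35% in C57BL/6-2, so where reads were present the levels were alike. Outside the block, 4.91% of 7074 sites were absent from mixed-2 only. The 13 Gm8909 sites that all 4 mice shared lay in the promoter of 2410017I17Rik and Gm10499, at the far end of Gm8909, and had median coverage of 73 to 143 reads.

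**Figure D5:**
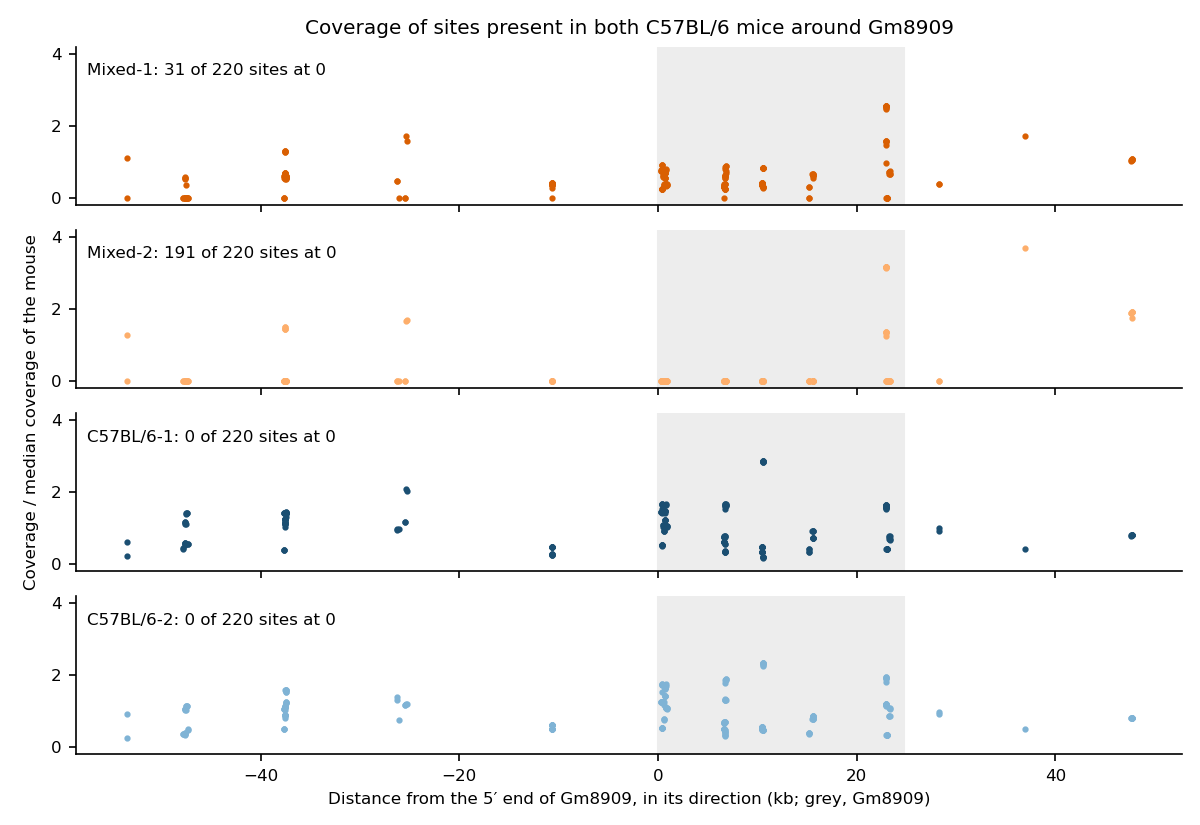
Coverage of sites present in both C57BL/6 mice, divided by the mouse's median coverage (y axis), against distance from the 5′ end of Gm8909 (kb, x axis, grey for the gene), one panel per mouse. Of 220 sites 191 were absent in mixed-2 and 31 in mixed-1, and none in C57BL/6.

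Some other class I promoters had more reads in mixed mice, although the class as a whole, at a median ratio of 1.11 and 1.26, was close to all members of the interval at 1.10 and 1.16. Over H2-Bl, a transcribed pseudogene of the T region with 48 promoter sites, the median coverage was 78, 141.5, 81 and 82.5 reads, which relative to each mouse's own depth was 1.67 and 2.57 times the C57BL/6 mean in the mixed mice. H2-Q6 had 128, 214, 98.5 and 87.5 reads, or 1.86 and 2.43 times, and H2-T10 43, 86, 53 and 49 reads, or 1.30 and 2.36 times. By contrast H2-D1 was at 0.938 and 1.11 times and H2-K1 at 1.32 and 1.22 times, while H2-K2, H2-Q1, H2-Q5 and H2-M5 were below 1 in both mixed mice. Of the 126 genes with at least 5 common promoter sites, 6 had a ratio of 2 or more in mixed-2 and none in mixed-1. They were H2-Bl, H2-Q6, H2-T10, Gm4577, 2410017I17Rik and Gm10499, the last 2 through the same 13 sites. The C57BL/6 mice make up the divisor, so no such count is given for them. In the other direction 6 genes had a ratio of 0.5 or less in mixed-2 (Psmb9 and Tap1 at their shared sites, Vwa7, Abcf1, Gm32655 and Mir877), and none in mixed-1. At 3 sites each of H2-Bl and H2-Q6 the 50-base window had a further exact copy. These genes were named after their coverage was seen. Despite the coverage, H2-Bl promoter methylation was 0.263%, 0.316%, 0.350% and 0.557%.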

How the data were processed

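The 4 deposited tables, 1 per liver, list each cytosine with its coverage as a read count and its methylated share as a percent, and the authors kept sites with at least 10 reads. The study's methods name BSMAP, while the submitters' processing notes name Bismark and SAMtools, both for mm10, so the aligner is uncertain. Versions are not given in the sources used here. Reads with a base other than C or T reached at most 9.86% of a site in any of the deposited tables. Bisulfite reads do not separate 5-methylcytosine from 5-hydroxymethylcytosine. Nor do the counts of C and T separate an unmethylated C from a T in the mouse's own sequence.

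Methylated and unmethylated counts were rebuilt from coverage and percent, and sites were joined by chromosome, base and strand. Annotation was RefSeq for GRCm38.p6, a promoter being 1000 bp to either side of a TSS, with listed classes taking precedence. The logistic model, checked on simulated data, took its overdispersion prior from sites of 20% to 80% and used limma 3.58.1 in R 4.3.3. Coverage ratios divide by each mouse's median over common autosomal sites. The interval, gene lists and naming rules were chosen with earlier results of these data known. Named were all listed genes with 5 or more promoter sites, fixed genes per mouse, the extremes, and the genes and windows with most absent sites. Alternatives were other coverage limits, tests, thresholds, strand merging, promoter definitions, and leaving out copied sequence or single mice.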

Additional observations from a re-analysis of the deposited data

How the results depend on the processing

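The count of strain-variable sites in the interval was 0 in the model and stayed 0 with a coverage minimum of 20, a coverage ceiling, merged strands, limma on log2 ratios and without copied sequence. It was 1 at adjusted p under 0.05, 3 at a difference of at least 10 points (all in the deep spot near Rpp21) and 9 by Fisher's exact test on pooled reads. Leaving out single mice gave 0 to 4 sites (4 without mixed-1, 4 without C57BL/6-1, 2 without C57BL/6-2), where the lone mouse of a strain is assumed to vary like the others. In the genome the same settings gave 0 (limma) to 1613 (Fisher) sites in place of 87. Mice of the same number did not deviate together (correlation 0.000363 over 148813 sites), so the numbers do not pair them. With the replicate block the interval count was 6 (688 in the genome), and the strain difference of the interval mean was -0.163 points.

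The share of C57BL/6 sites absent from both mixed mice, 6.69%, was 11.3% when presence needed 20 reads and 0.599% among sites with 40 or more C57BL/6 reads, and it ranged from 7.71% to 13.2% without single mice (13.2% without mixed-1). The interval mean was lower in C57BL/6 under all alternatives, with a difference of -0.199 to -0.0813 points. Class differences kept their sign, from -3.64 to -1.53 points for class I, -5.88 to -3.73 for class II and 14.9 to 33.8 for complement. Of listed gene promoters, H2-Q6 fell to 1.03% and H2-Q10 rose to 23.3% when only the 1000 bp upstream counted, where H2-Q10 has 1 site. The run of sites absent from mixed-2 was re-counted at 2 higher coverages, chosen after seeing the data. With 2 mice a strain, no permutation of mice can reach 0.05.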
